A study of Homo sapiens with 12 samples.

Results

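The NRF2 antioxidant target genes described here are NQO1, GCLM, GCLC, TXNRD1, SRXN1, HMOX1, PGD, ME1 and OSGIN1. They were chosen by gene symbol, through the platform annotation of the array, and each had 1 probe set, so they are 9 of the 17687 named genes and of the 21448 probe sets measured. The study measured RNA of the human lung adenocarcinoma cell lines PC-9 and H1975, in both of which the EGF receptor gene is mutated and active, on 12 one-colour arrays in 4 groups of 3. In PC-9 cells with SK-216 and in H1975 cells with SK-216, cells that had outlived osimertinib were given 100 µM of this compound, which the labels describe as a PAI-1 inhibitor, and the living cells were taken after 48 h. In tolerant PC-9 cells and tolerant H1975 cells, cells alive after 1 week in 0.5 µM osimertinib, an inhibitor of the same receptor, were taken on day 8. All 4 groups thus share osimertinib, and no osimertinib-free cells entered any comparison. One label field calls the cells that received SK-216 naive, whereas their titles and descriptions call them tolerant. Whether osimertinib stayed in the medium with SK-216 is not stated, and SK-216 and the further 48 h cannot be told apart. Nothing in the labels says that the arrays of a group came from separate cultures, so the spread behind every p-value is that among these arrays and could be technical.

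NRF2, the product of NFE2L2, is a transcription factor that in resting cells is bound by KEAP1 and handed to a ubiquitin ligase built on CUL3. Electrophiles and oxidants modify KEAP1, NRF2 then accumulates, pairs with a small MAF protein and binds antioxidant response elements. Its targets make glutathione, reduce thioredoxin and peroxiredoxins, supply NADPH and detoxify quinones, and loss of KEAP1 function is a known route to their high expression in lung adenocarcinoma. HMOX1 is in addition held down by BACH1, which heme releases from DNA, and is induced by many other stresses.

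The deposited values are log2 signals, so a difference of 1 is a 2-fold difference in signal, and levels are compared between groups for 1 gene and never between genes. A gene was called changed when its adjusted p was below 0.05 in limma's moderated test over all 21448 probe sets with Benjamini-Hochberg adjustment. All adjusted p-values given are of this kind, with 3 arrays in each group. Array medians lay between 6.56 and 6.62. Across probe sets, Pearson r was 0.993 to 0.995 within groups and 0.927 to 0.932 from one line to the other. The group means of all 8 epithelial markers examined lay above 5.06, the 95th percentile of 348 olfactory receptor probe sets used to describe the level of genes not expected in these cells. Of 6 endothelial markers 3 lay at or below it in both PC-9 groups and 5 in both H1975 groups, and of 5 leukocyte markers 2 did in PC-9 cells with SK-216 and 3 in each other group. Of 5 fibroblast markers 2 lay at or below it in each group. With SK-216 in H1975, COL1A1, a collagen chain, fell, and the other 4 did not pass, with changes in both directions. The summed log2 signal of the fibroblast list was 30.56 to 31.37 in H1975 with SK-216 and 31.68 to 32.85 in tolerant H1975 cells, and that of the epithelial list was 90.33 to 91.63 in H1975 with SK-216 and 90.15 to 91.79 in tolerant H1975 cells. In PC-9 the epithelial sum was 119.43 to 120.02 with SK-216 and 117.85 to 118.73 in tolerant cells, which do not overlap, and 0 of its 8 genes passed the limma test there. In H1975 3 epithelial markers rose and 2 fell with SK-216, against 1.44% and 2.35% of all probe sets. The changes of the 8 ran there from -1.55 for CDH1 to 0.77 for EPCAM, so the overlapping sums hide opposite shifts. Between tolerant cells all 8 were higher in PC-9, against 21.3% of all probe sets, with a median log2 difference of 3.53. The part of these shifts in the results below was not tested.

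The core of the antioxidant response element, TGACNNNGC, was searched on both strands in RefSeq promoter windows of build GRCh38.p14 that run from 250 bases before to 50 bases after a gene's start. Of the 9 genes 8 had a window, TXNRD1 for 2 starts, and HMOX1 had none. The core was present in 5 of the 9 windows of these genes and in 13.3% of all 35116 windows. Those 5 windows belong to 4 of the 8 genes, GCLM, ME1, PGD and TXNRD1. Matches that lie upstream of the start together with 20 bases on either side are shown, because they are the letters NRF2 is known to recognise. A further match in the window of the first TXNRD1 start, with its first base at -8, and another in ME1 at 12 are not shown. Each is written 5′ to 3′ along the strand of its gene with the core in capitals, and a core on the opposite strand reads as GCNNNGTCA.
GCLM, chr1:93909436-93909484, minus strand: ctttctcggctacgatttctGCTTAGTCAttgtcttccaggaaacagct
ME1, chr6:83431160-83431208, minus strand: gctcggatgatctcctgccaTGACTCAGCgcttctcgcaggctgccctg
PGD, chr1:10398843-10398891, plus strand: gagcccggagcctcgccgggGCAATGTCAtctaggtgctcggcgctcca
TXNRD1, first start, chr12:104215660-104215708, plus strand: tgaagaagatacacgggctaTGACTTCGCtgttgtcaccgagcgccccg
TXNRD1, second start, chr12:104286910-104286958, plus strand: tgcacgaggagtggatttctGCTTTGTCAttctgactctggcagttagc
Counted from the start, the first capital lies at -34 in GCLM, at -137 in ME1, at -201 in PGD, and at -99 and -102 in the windows of TXNRD1. The ME1 core also holds TGACTCA, the recognition sequence of the AP-1 factors. On either strand this sequence occurred in 2 of the 9 windows of these genes and in 4.95% of all windows. A match describes these letters only and is no measurement of binding, and the windows of NQO1, GCLC, SRXN1 and OSGIN1 held no match.

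The largest differences among the 9 genes lay between the cell lines. Before any SK-216, 8 of the 9 were higher in tolerant PC-9 cells than in tolerant H1975 cells and 1, HMOX1, was lower. All 9 passed the test. Of all probe sets 44% were called in either direction, 21.3% higher and 22.7% lower. The arrays of the lines did not overlap for any of the 9, which held for 50.2% of all probe sets, 25% with PC-9 higher and 25.3% with PC-9 lower. In bulk RNA, fewer cells of a kind and less RNA per cell cannot be told apart. The median log2 difference of the 9 genes was 1.64, and that of all probe sets was 0.02.

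**Figure D1:**
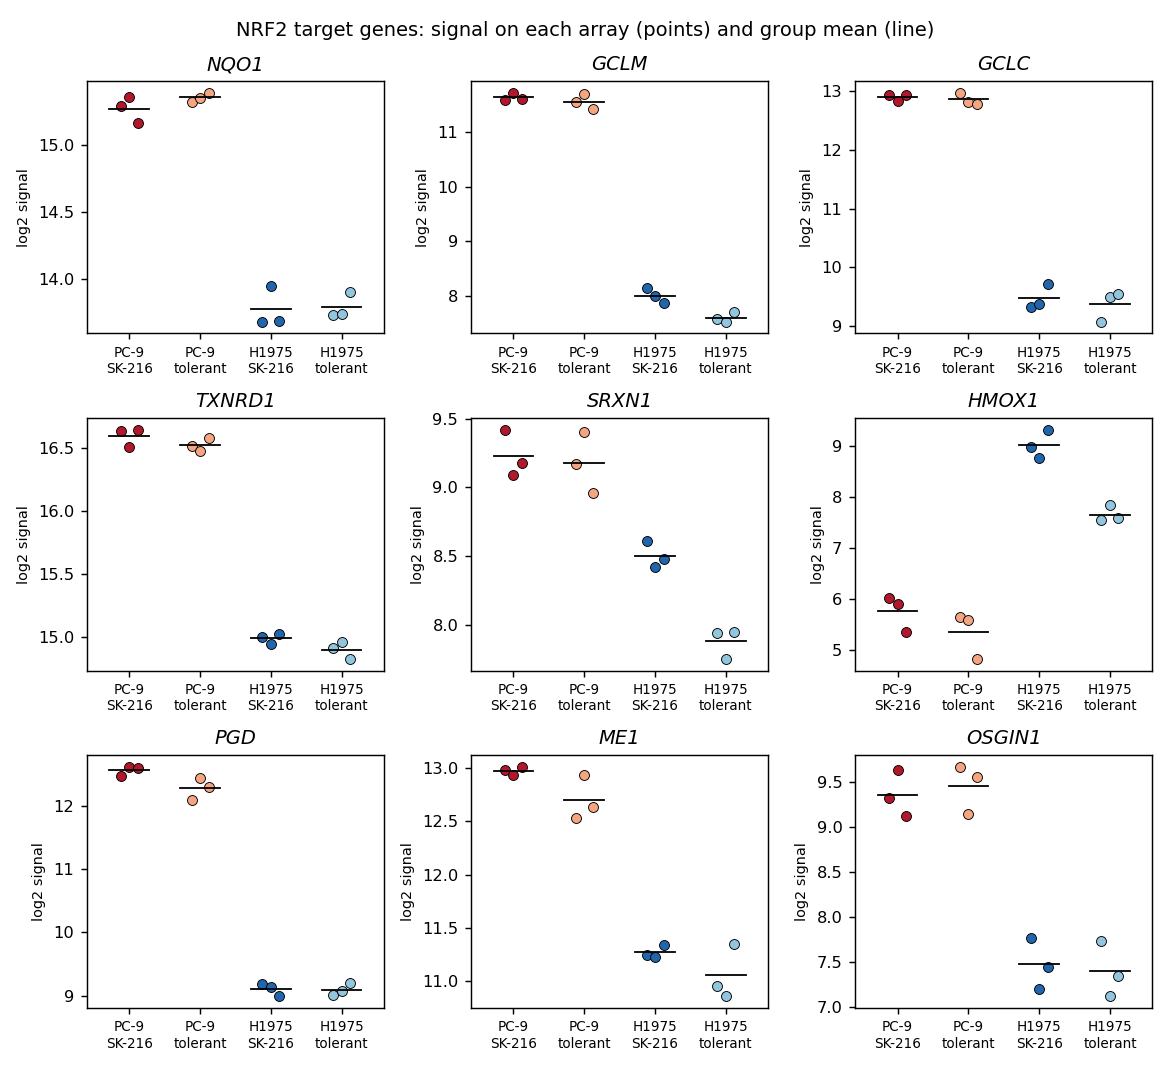
Signal of the 9 NRF2 target genes on each array (vertical axis, log2 signal, a separate scale for each gene; points are the 3 arrays of a group and lines the group means). All PC-9 points lie above all H1975 points except for HMOX1, where they lie below, and HMOX1 and SRXN1 are higher in H1975 with SK-216 than in tolerant H1975.

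Both subunits of glutamate-cysteine ligase, which makes the first intermediate of glutathione, differed strongly between the lines. GCLM, the modifier subunit, measured 11.59, 11.73 and 11.62 in PC-9 cells with SK-216, 11.55, 11.70 and 11.42 in tolerant PC-9 cells, 8.14, 8.00 and 7.86 in H1975 cells with SK-216, and 7.57, 7.52 and 7.70 in tolerant H1975 cells. The lowest PC-9 array was more than 3 log2 units above the highest H1975 array, and within H1975 the SK-216 arrays all lay above the tolerant arrays. GCLC, the catalytic subunit, measured 12.94, 12.83 and 12.93 in PC-9 cells with SK-216, 12.98, 12.82 and 12.79 in tolerant PC-9 cells, 9.32, 9.38 and 9.72 in H1975 cells with SK-216, and 9.07, 9.50 and 9.55 in tolerant H1975 cells. Its arrays overlapped between SK-216 and tolerant cells in each line. In tolerant cells GCLM was higher in PC-9 by 3.96 ± 0.13 (log2 fold change with the standard error from the fit, adjusted p = 9.81e-18), a 15.6-fold difference in signal, and GCLC by 3.49 ± 0.13 (adjusted p = 1.11e-16), an 11.2-fold difference.

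NQO1, the quinone reductase that is a standard readout of NRF2 activity, measured 15.29, 15.36 and 15.16 in PC-9 cells with SK-216, 15.32, 15.35 and 15.39 in tolerant PC-9 cells, 13.68, 13.95 and 13.69 in H1975 cells with SK-216, and 13.73, 13.74 and 13.90 in tolerant H1975 cells. The lines were separate and the treatments overlapped in both. Tolerant PC-9 cells were higher than tolerant H1975 cells by 1.56 ± 0.09 (adjusted p = 1.14e-13).

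The genes of thioredoxin and peroxiredoxin reduction followed the same order of lines. TXNRD1, cytosolic thioredoxin reductase, measured 16.64, 16.51 and 16.65 in PC-9 cells with SK-216, 16.52, 16.48 and 16.58 in tolerant PC-9 cells, 15.00, 14.94 and 15.02 in H1975 cells with SK-216, and 14.91, 14.96 and 14.82 in tolerant H1975 cells. Its line difference in tolerant cells was 1.63 ± 0.07 (adjusted p = 5.45e-16). SRXN1, sulfiredoxin, which restores overoxidised peroxiredoxins, measured 9.42, 9.09 and 9.18 in PC-9 cells with SK-216, 9.17, 9.40 and 8.96 in tolerant PC-9 cells, 8.61, 8.42 and 8.48 in H1975 cells with SK-216, and 7.94, 7.75 and 7.95 in tolerant H1975 cells. All SK-216 arrays of H1975 lay above all tolerant H1975 arrays and below all PC-9 arrays. SRXN1 had the smallest line difference in tolerant cells among the 8 genes higher in PC-9, 1.30 ± 0.16 (adjusted p = 1.89e-07), and between the SK-216 groups the difference of the means was 0.73.

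Of the enzymes that supply NADPH, PGD, 6-phosphogluconate dehydrogenase of the pentose phosphate pathway, measured 12.48, 12.62 and 12.60 in PC-9 cells with SK-216, 12.10, 12.44 and 12.30 in tolerant PC-9 cells, 9.18, 9.13 and 8.99 in H1975 cells with SK-216, and 9.01, 9.07 and 9.20 in tolerant H1975 cells. In PC-9 the SK-216 arrays all lay above the tolerant arrays, and in H1975 they overlapped. PGD was higher in tolerant PC-9 cells by 3.19 ± 0.12 (adjusted p = 8.3e-17). ME1, cytosolic malic enzyme, measured 12.98, 12.93 and 13.01 in PC-9 cells with SK-216, 12.53, 12.93 and 12.63 in tolerant PC-9 cells, 11.25, 11.23 and 11.34 in H1975 cells with SK-216, and 10.96, 10.86 and 11.35 in tolerant H1975 cells. Tolerant array 2 of PC-9 and tolerant array 3 of H1975 reached the SK-216 levels of their lines. ME1 was higher in tolerant PC-9 cells by 1.64 ± 0.12 (adjusted p = 4.04e-11).

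OSGIN1, an oxidative stress-induced growth inhibitor, measured 9.32, 9.63 and 9.12 in PC-9 cells with SK-216, 9.67, 9.15 and 9.56 in tolerant PC-9 cells, 7.77, 7.20 and 7.45 in H1975 cells with SK-216, and 7.73, 7.12 and 7.34 in tolerant H1975 cells. It was higher in tolerant PC-9 cells by 2.06 ± 0.20 (adjusted p = 3.42e-09), and the treatments overlapped in both lines.

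HMOX1, heme oxygenase 1, which opens the heme ring to biliverdin, iron and carbon monoxide, ran opposite to the other 8 between the lines. It measured 6.02, 5.90 and 5.36 in PC-9 cells with SK-216, 5.66, 5.59 and 4.83 in tolerant PC-9 cells, 8.97, 8.75 and 9.31 in H1975 cells with SK-216, and 7.54, 7.83 and 7.59 in tolerant H1975 cells. All H1975 arrays lay above all PC-9 arrays, and within H1975 the SK-216 arrays all lay above the tolerant arrays. All 6 PC-9 arrays lay within the range of the olfactory receptor probe sets, 2.65 to 7.10, and tolerant PC-9 array 3 lay below their 95th percentile of 5.06, so the differences of HMOX1 that involve PC-9 rest on a level near that of genes not expected in these cells. HMOX1 was lower in tolerant PC-9 cells, with a log2 fold change of -2.29 ± 0.24 (adjusted p = 1.09e-08), 4.90-fold higher signal in tolerant H1975 cells, and between the SK-216 groups the means differed by -3.25 (PC-9 minus H1975).

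In H1975 cells with SK-216, 2 of the 9 genes rose, HMOX1 and SRXN1, and 0 fell. Of all probe sets 3.8% were called, 1.44% higher and 2.35% lower. An unadjusted p below 0.05 was reached by 3 of the 9 genes and by 14.2% of all probe sets. HMOX1 averaged 9.01 ± 0.28 in H1975 cells with SK-216 and 7.65 ± 0.16 in tolerant H1975 cells (mean log2 signal ± SD, n = 3 each). The change was 1.36 ± 0.24 (adjusted p = 0.000777), a 2.56-fold higher signal with a 95% interval of 1.83 to 3.59. SRXN1 averaged 8.50 ± 0.10 with SK-216 and 7.88 ± 0.11 in tolerant cells (mean log2 signal ± SD, n = 3 each), a change of 0.62 ± 0.16 (adjusted p = 0.0239) or 1.54-fold. The SRXN1 call ended in 4 of the 12 fits that left out 1 array, namely tolerant H1975 array 1 or 2 or H1975 SK-216 array 1 or 3, with adjusted p up to 0.108, and the HMOX1 call stood in all 12 with adjusted p up to 0.0109.

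GCLM came next in H1975, at 0.40 ± 0.13, and did not pass (adjusted p = 0.109), although its arrays did not overlap. Arrays of the groups did not overlap with SK-216 higher for 3 of the 9 genes, HMOX1, SRXN1 and GCLM, and for 8.95% of all probe sets, with 18.5% not overlapping in either direction and 9.56% with SK-216 lower. The other 6 genes had changes in H1975 between -0.02 and 0.22, none past the test. The 95% intervals of their log2 changes ran from -0.19 to 0.16 for NQO1, from -0.05 to 0.23 for TXNRD1, from -0.18 to 0.38 for GCLC, from -0.24 to 0.26 for PGD, from -0.04 to 0.47 for ME1 and from -0.33 to 0.49 for OSGIN1. The median change of the 9 genes in H1975 was 0.10, and that of all probe sets 0.01.

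**Figure D2:**
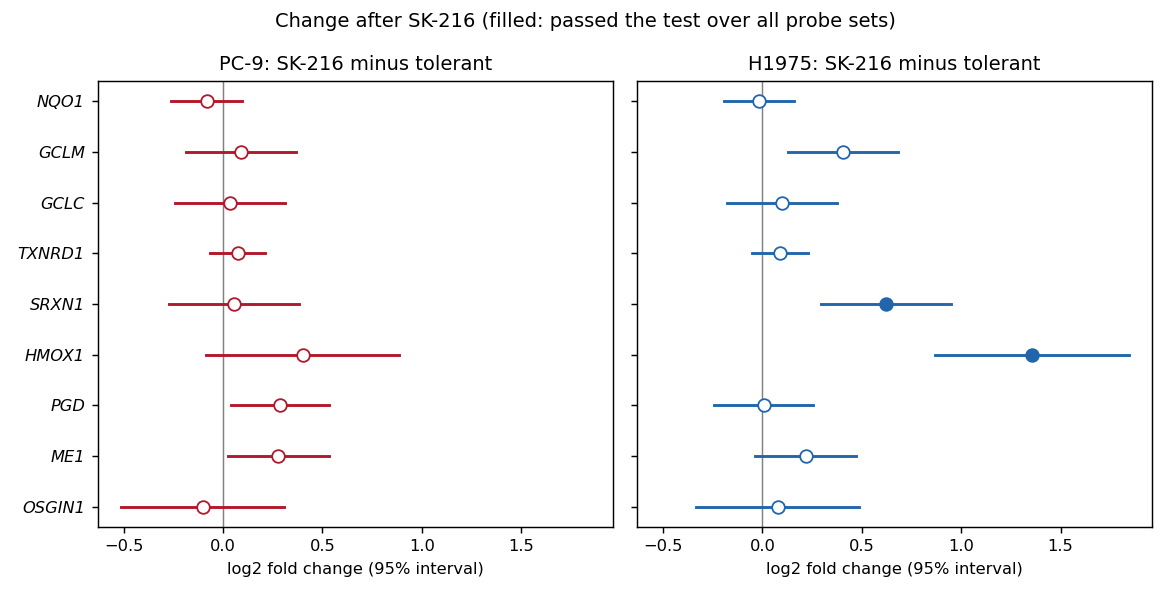
Log2 fold change of each NRF2 target gene after SK-216 (horizontal axis) in PC-9 on the left and H1975 on the right, with 95% intervals of the fit over 3 arrays a group as bars. Filled points passed the test over all probe sets, which HMOX1 at 1.36 and SRXN1 at 0.62 did in H1975 and no gene did in PC-9.

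In PC-9 cells 0 of the 9 genes passed the limma test after SK-216, where 0.443% of all probe sets were called, 0.373% higher and 0.0699% lower. An unadjusted p below 0.05 was reached by 2 of the 9, PGD and ME1, and by 10.9% of all probe sets. PGD averaged 12.57 ± 0.08 in PC-9 cells with SK-216 and 12.28 ± 0.17 in tolerant PC-9 cells (mean log2 signal ± SD, n = 3 each), a change of 0.29 ± 0.12 (adjusted p = 0.377). It was the only one of the 9 whose PC-9 groups did not overlap, as was the case with SK-216 higher for 8.21% of all probe sets, against 6.8% with SK-216 lower and 15% in either direction. ME1 was at 0.28 ± 0.12 (adjusted p = 0.41), and HMOX1 at 0.40 ± 0.24 (adjusted p = 0.569) with a 95% interval of -0.09 to 0.89. Without 1 array the HMOX1 value in PC-9 lay between 0.14 and 0.60. The values of the remaining 6 genes ran from -0.10 for OSGIN1 to 0.09 for GCLM, and SRXN1 was at 0.05 ± 0.16 with an interval of -0.27 to 0.38. The median of the 9 was 0.07, and that of all probe sets 0.00.

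The changes of the 2 lines were not shown to differ for any of the 9 genes. The difference, PC-9 minus H1975, was -0.96 ± 0.33 for HMOX1 (adjusted p = 0.185, 95% interval -1.65 to -0.27) and -0.57 ± 0.22 for SRXN1 (adjusted p = 0.261, interval -1.03 to -0.11). Both had an unadjusted p below 0.05, as 12.7% of all probe sets did, and 1.42% of all probe sets passed the limma test of the difference, 1.09% with a higher and 0.331% with a lower change in PC-9. GCLM had a difference of -0.31 ± 0.19 and PGD one of 0.28 ± 0.17, and the other 5 genes lay between -0.18 and 0.06. By group means both groups of a line stood next to each other for each of the 9 genes, and within a line neighbouring groups differed past the test only for HMOX1 and SRXN1 in H1975.

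As a description over the 12 arrays, each taken as its deviation from the mean of its line, the 36 pairs of genes had a median Pearson r of 0.10, ranging from -0.66 for NQO1 with TXNRD1 to 0.86 for GCLM with SRXN1. The arrays share their treatment groups, which these values include. SRXN1 with HMOX1 had r = 0.85 and GCLM with HMOX1 r = 0.78, and PGD with ME1 had r = 0.71. GCLM and GCLC, whose products form 1 enzyme, had r = 0.06. The probe sets most like the mean of the 9 genes on this scale, among 11064 named ones with a mean of 6 or more in at least 1 group, were CORO2A at r = 0.959, STC2 at 0.944, ZC3H12C at 0.938, DNAJB9 at 0.937 and TRIB3 at 0.933. The H1975 changes within this mean were uneven, with HMOX1 at 1.36, SRXN1 at 0.62 and GCLM at 0.40. Those of the other genes lay between -0.02 and 0.22, so likeness to the mean is not likeness to each gene. This scale keeps the treatment difference, and the mean of the 9 genes was higher on every H1975 SK-216 array than on every tolerant H1975 array. Picking by likeness on the same arrays thus favours genes that rise with SK-216 in H1975. The values and adjusted p-values of the picked genes are a description and no independent support. STC2, a secreted glycoprotein, was at 0.13 ± 0.08 in PC-9 (adjusted p = 0.609) and rose by 0.79 ± 0.08 in H1975 (adjusted p = 1.21e-06). TRIB3, a pseudokinase, rose in both lines, by 0.96 ± 0.18 in PC-9 (adjusted p = 0.0108) and 1.38 ± 0.18 in H1975 (adjusted p = 2.14e-05). CORO2A was at 0.04 in PC-9 and rose by 0.59 ± 0.16 in H1975 (adjusted p = 0.0319). DNAJB9 was at 0.27 in PC-9 and rose by 0.85 ± 0.11 in H1975 (adjusted p = 2.4e-05). ZC3H12C passed in neither line, at 0.11 in PC-9 and 0.43 in H1975.

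Of 12 measured regulators and partners of NRF2, 0 passed the limma test after SK-216 in PC-9 and 0 in H1975, against 0.443% and 3.8% of all probe sets. Their changes ran from -0.42 to 0.44 in each line, with a median of 0.08 in PC-9 and 0.14 in H1975. NFE2L2 itself measured 13.05 ± 0.04 in PC-9 with SK-216, 12.99 ± 0.05 in tolerant PC-9, 12.68 ± 0.14 in H1975 with SK-216 and 12.48 ± 0.12 in tolerant H1975 (mean log2 signal ± SD, n = 3). Its change was 0.06 ± 0.10 in PC-9 and 0.19 ± 0.10 in H1975. KEAP1 was at 0.13 ± 0.13 in PC-9 and -0.23 ± 0.13 in H1975, BACH1, the repressor of HMOX1, at -0.02 ± 0.11 and 0.01 ± 0.11, and SQSTM1, an autophagy receptor that binds KEAP1, at 0.14 ± 0.09 and 0.18 ± 0.09. RBX1, the RING subunit of the ligase, was at 0.44 ± 0.15 in PC-9 and -0.42 ± 0.15 in H1975, neither past the test, and these 2 changes differed by 0.86 ± 0.22 (adjusted p = 0.0442). That call ended with the replicate number as a block (adjusted p = 0.0765) and with quantile normalization (adjusted p = 0.065). Between tolerant cells of the lines, NFE2L2 was higher in PC-9 by 0.51 ± 0.10 (adjusted p = 9.17e-05) and SQSTM1 by 1.65 ± 0.09 (adjusted p = 1.66e-13), KEAP1 was lower, at -0.52 ± 0.13 (adjusted p = 0.00148), and BACH1, at 0.23 ± 0.11, did not pass. Of the 12 regulators 6 were higher and 3 lower in PC-9, against 21.3% and 22.7% of all probe sets, with a median of 0.37.

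**Figure D3:**
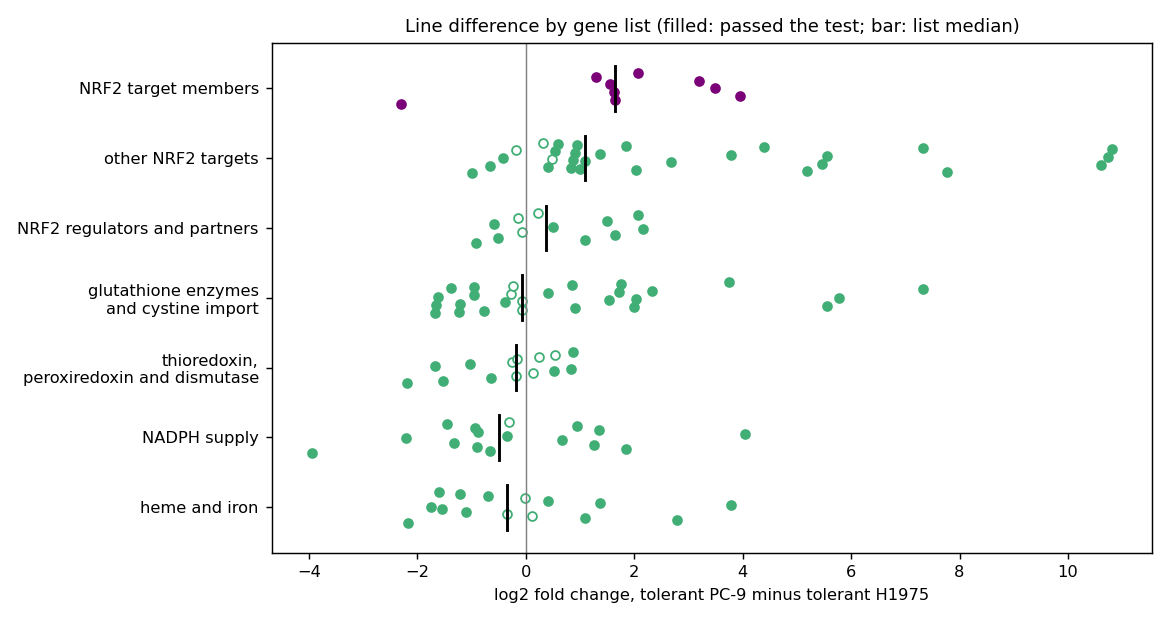
Log2 fold change of tolerant PC-9 over tolerant H1975 cells (horizontal axis) for each measured gene of the NRF2 target genes and of 6 related lists, with filled points past the test and bars at the list medians. The medians are 1.64 for the 9 genes and 1.10 for the other NRF2 targets, and lie between -0.50 and 0.37 for the other lists.

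Other known NRF2 targets shared the order of the lines. Of 29 measured genes 23 were higher in tolerant PC-9 cells, 3 were lower and 3 did not pass, with a median of 1.10 and a range of -0.99 to 10.82. AKR1C2 sets the top of that range, and its mean in tolerant H1975 cells was 4.41, below the olfactory receptor level of 5.06. Means of CYP4F11, ABCC2, AKR1B10 and ALDH3A1 in tolerant H1975 cells were also below it, so the sizes of these differences rest on a dim level. Over all probe sets 21.3% were called higher and 22.7% lower, which applies to each list here. AKR1C3, an aldo-keto reductase with close paralogs whose probe sets may share signal, was higher by 7.77 ± 0.15, and SLC7A11, the cystine carrier of the xCT antiporter, by 5.55 ± 0.09. Lists of the same chemistry that are not defined by NRF2 were mixed, but the 9 genes were left out of them. GCLM, GCLC, TXNRD1, SRXN1, PGD and ME1, all higher in PC-9, and HMOX1, lower there, are thus not in the counts that follow. Part of the contrast with the NRF2 targets comes from leaving them out. Glutathione enzymes and cystine import had 13 higher and 10 lower of 27 (median -0.07), the thioredoxin, peroxiredoxin and dismutase list 3 and 5 of 14 (median -0.17), NADPH supply 6 and 9 of 16 (median -0.50), and heme and iron 5 and 7 of 15 (median -0.34). The lists overlap in some genes.

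Among the 29 other NRF2 targets 0 passed the limma test after SK-216 in PC-9, against 0.443% of all probe sets, with a median of 0.05. In H1975 1 rose and 2 fell, against 1.44% of all probe sets called higher and 2.35% called lower, with a median of -0.04. SLC7A11 measured 15.83, 15.64 and 15.80 in PC-9 with SK-216, 15.98, 15.77 and 15.86 in tolerant PC-9, 12.03, 11.98 and 12.05 in H1975 with SK-216, and 10.24, 10.43 and 10.29 in tolerant H1975. It rose by 1.70 ± 0.09 in H1975 (adjusted p = 1.31e-11) and was at -0.11 ± 0.09 in PC-9 (adjusted p = 0.694). ABCC3, an efflux transporter of conjugates, fell in H1975, at -0.74 ± 0.12 (adjusted p = 0.000437), as did AKR1C3, at -0.83 ± 0.15 (adjusted p = 0.00144).

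In the glutathione list 1 gene rose and 0 fell in PC-9, and 3 rose, SLC7A11 among them, and 1 fell in H1975. Over all probe sets 0.373% were called higher and 0.0699% lower in PC-9, and 1.44% and 2.35% in H1975. SLC3A2, the heavy chain that carries SLC7A11 to the membrane, rose by 0.70 ± 0.08 in H1975 (adjusted p = 3.8e-06) and was at 0.00 ± 0.08 in PC-9. CHAC1, which degrades glutathione and is a known target of ATF4, rose in both lines, by 0.77 ± 0.16 in PC-9 (adjusted p = 0.0274) and 0.81 ± 0.16 in H1975 (adjusted p = 0.00292). The CHAC1 call in PC-9 ended with the replicate number as a block (adjusted p = 0.0768), with the PC-9 groups fitted alone (adjusted p = 0.0836) and without any 1 of PC-9 tolerant arrays 1 and 2 and the 3 PC-9 SK-216 arrays, with adjusted p up to 0.125. GPX3, a secreted glutathione peroxidase, fell in H1975, at -0.52 ± 0.13 (adjusted p = 0.0233), a call that ended without tolerant H1975 array 2 or 3 or H1975 SK-216 array 1 or 3 (adjusted p up to 0.132) and with the H1975 groups fitted alone (adjusted p = 0.058). GSTK1, a mitochondrial and peroxisomal glutathione transferase, was at 0.35 ± 0.12 in PC-9 and -0.39 ± 0.12 in H1975, neither past the test, with a difference of 0.73 ± 0.17 (adjusted p = 0.0272) that did not pass with the replicate number as a block (adjusted p = 0.0711).

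Other redox lists had 1 call each in H1975 and 0 in PC-9, against 3.8% and 0.443% of all probe sets. TXNIP, which binds and inhibits thioredoxin, fell in H1975, at -0.40 ± 0.08 (adjusted p = 0.00272), and was at 0.00 ± 0.08 in PC-9. MTHFD2, a mitochondrial folate enzyme, rose by 0.45 ± 0.09 in H1975 (adjusted p = 0.00366) and was at 0.32 ± 0.09 in PC-9 (adjusted p = 0.143). ABCG2, a transporter that exports porphyrins and drugs, rose by 0.66 ± 0.15 in H1975 (adjusted p = 0.0131), a call that ended without tolerant H1975 array 1 or 2 or H1975 SK-216 array 2 or 3 (adjusted p up to 0.0765). List medians were 0.13, 0.20 and 0.12 in PC-9 and -0.14, -0.01 and -0.03 in H1975 for the thioredoxin, NADPH and heme lists.

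**Figure D4:**
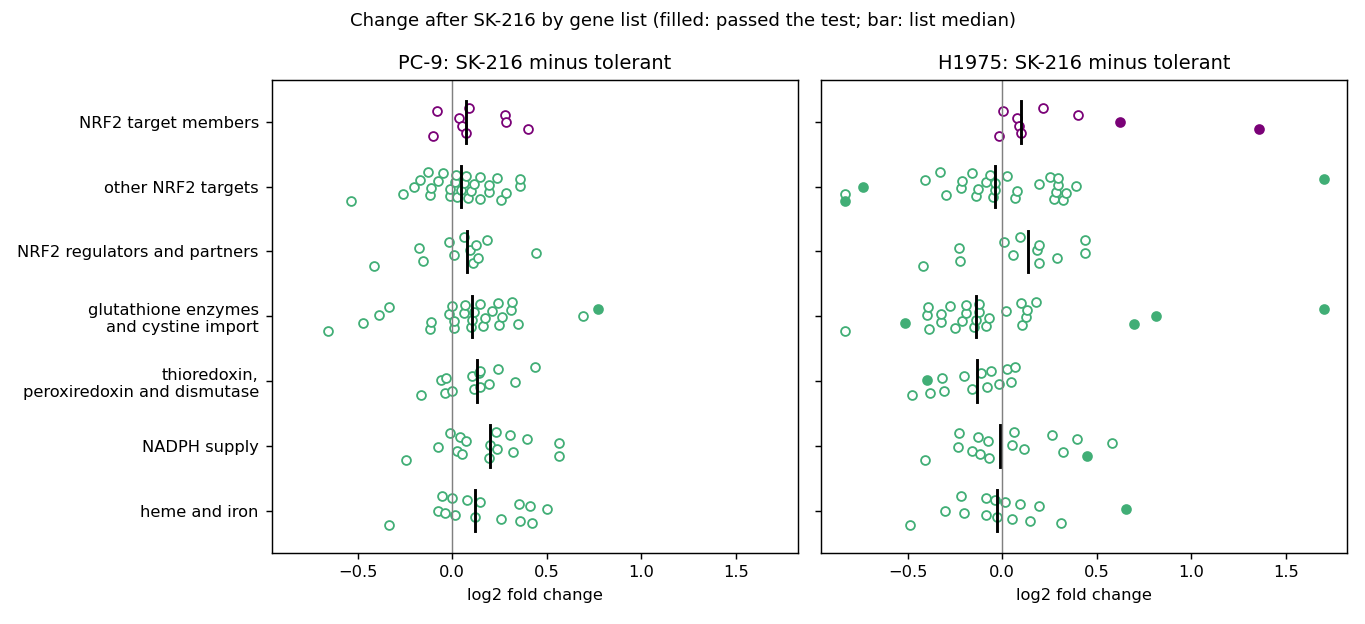
Log2 fold change after SK-216 (horizontal axis) for each measured gene of the NRF2 target genes and of 6 related lists, in PC-9 on the left and H1975 on the right, with filled points past the test and bars at the list medians. In H1975 the filled points are few and lie on both sides of 0, with SLC7A11 at 1.70 the highest, and in PC-9 CHAC1 at 0.77 is the only one.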

How the data were processed

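RNA was extracted and 250 ng of it was labelled for each whole-transcript array, per the labels' protocols. The authors deposited log2 signals, 1 value for each probe set on each array. Per the submitters' processing notes they used Transcriptome Analysis Console. Which version, normalization and genome build they used is not stated in those sources. The values ran from 2.19 to 18.61 and were used as deposited. No file gives detection calls, so signal is described against olfactory receptor probe sets only, and precision rests on the number of arrays.

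Among the 21448 probe sets, 17709 carried 1 gene symbol, 0 had several and 3739 were unnamed here. Names were updated by Entrez identifier through a RefSeq table of assembly GRCh38.p14, and all 17709 matched. With limma 3.58.1 (R 4.3.3), a mean for each of the 4 groups was estimated from the 12 arrays together, with eBayes and a variance trend (residual degrees of freedom 8, prior ones 15.0 at the median), no filter and two-sided tests. The fit was tested on simulated data with planted changes. Their noise was independent between arrays with the variances of the fit, so the simulation cannot tell whether the real arrays are technical repeats.

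The members, the 10 related and marker gene lists and the alternatives were chosen with earlier results of these data known, and the olfactory receptor level was chosen after the data were examined. Named genes outside the members were the genes of the 6 pathway lists, marker lists left aside, that were called in an SK-216 comparison or its difference between lines, up to 6 per list and comparison, with NFE2L2, KEAP1, BACH1 and SQSTM1, and the 5 probe sets most correlated with the members' mean. COL1A1, CDH1, EPCAM, AKR1C2, CYP4F11, ABCC2, AKR1B10 and ALDH3A1 were named after their values were seen. The comparisons share arrays: tolerant H1975 arrays enter 3 of the 4, and tolerant PC-9 arrays also enter 3 of the 4. Promoter windows came from RefSeq, GRCh38.p14. Figures were drawn with matplotlib 3.10.9.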

Additional observations from a re-analysis of the deposited data

Results flagged for a closer look

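The change after SK-216 differed between the lines by the limma test of the difference (PC-9 minus H1975, log2, 3 arrays a group) for 5 genes of the related lists and for 0 of the 9 NRF2 target genes, of which 2 had an unadjusted p below 0.05, as 12.7% of all probe sets did. Over all probe sets 1.42% passed the limma test of the difference. The difference was -1.81 ± 0.13 for SLC7A11 (adjusted p = 3.32e-09), with all 3 H1975 SK-216 arrays above the tolerant ones. It was -0.70 ± 0.11 for SLC3A2 (adjusted p = 0.00105), 0.93 ± 0.22 for AKR1C3 (adjusted p = 0.0237), 0.73 ± 0.17 for GSTK1 (adjusted p = 0.0272) and 0.86 ± 0.22 for RBX1 (adjusted p = 0.0442). The calls of AKR1C3, GSTK1 and RBX1 ended in 7, 7 and 9 of 12 leave-one-out fits, with adjusted p up to 0.176, 0.155 and 0.194 over all alternatives. The calls of RBX1 and GSTK1 also ended with the replicate number as a block (adjusted p = 0.0765 and 0.0711), and those of RBX1 and AKR1C3 with quantile normalization (adjusted p = 0.065 and 0.0568).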

How the results depend on the processing

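Over the alternatives tried, the 9 line differences kept their calls and directions, and 0 of the 9 genes passed in PC-9 or in the difference between lines under any of them. In H1975 the number of genes called was 2 and became 1 at an adjusted p below 0.01, where SRXN1 no longer passed, and 1 to 2 when 1 array was left out. Of 747 values of the 9 genes under alternatives 5 lost a call, all of SRXN1 in H1975, and 0 gained one. Values near 0 that passed in neither fit changed sign 28 times, in 12 comparisons of a gene, with reported sizes up to 0.10. With the replicate number as a block 2 genes passed in H1975, 0 in PC-9 and 9 between lines, as without it. Same-numbered arrays had correlations of their deviations from -0.09 to 0.01 in H1975 and 0.02 to 0.03 in PC-9, so the numbers were not taken as pairs. In PC-9 each SK-216 array correlated best with its own number (3 of 3), in H1975 1 of 3. Over all probe sets the block gave 673 calls against 814 in H1975 and 58 against 95 in PC-9. Without a variance trend there were 448 in H1975, 18 in PC-9 and 99 against 304 for the difference, and at an adjusted p below 0.01 there were 422, 33 and 136. Without PC-9 tolerant array 3 there were 46 in PC-9, and without PC-9 SK-216 array 1, 2 or 3 there were 60, 30 and 59. With quantile normalization 1 regulator passed in H1975, where 0 had. Over the alternatives the calls in H1975 ranged from 0 to 3 for the thioredoxin list, 0 to 2 for NADPH supply and 0 to 1 for heme and iron, each 1 as reported. In PC-9 the glutathione list ranged from 0 to 2 (1 as reported). For the difference the glutathione list ranged from 1 to 5 (3 as reported), the other NRF2 targets from 1 to 2 (2) and the regulators from 0 to 1 (1). The calls of TXNIP, MTHFD2, GPX3 and ABCG2 in H1975, CHAC1 in PC-9 and the differences of SLC3A2, AKR1C3, GSTK1 and RBX1 ended without the trend. The cause was not tested.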
